A study of Mus musculus with 11 samples.

Results

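ZEB2 knockout and ZEB2 floxed control gastrocnemius were compared, as 6 of the 11 libraries of a mouse RNA sequencing series, and every gene of the count table was considered. The libraries were chosen by their labels alone: 3 ZEB2 knockouts (genotype ZEB2 flx/flx; HSACre) and 3 ZEB2 controls (ZEB2 flx/flx without Cre), numbered 1 to 3 in each group. The gastrocnemius, a calf muscle of mostly fast fibres, was taken from mice of both groups after 36 h of fasting, a standard way to induce muscle wasting. HSA-Cre is a recombinase under the human skeletal actin promoter, active in myofibres, so the other cells of the muscle keep ZEB2. Each library held RNA of 2 pooled mice, and the labels used here state neither age nor strain. No group analysed here carried HSA-Cre without floxed alleles, so loss of ZEB2 and presence of Cre cannot be told apart, and p-values measure the spread between pools.

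ZEB2 is a zinc-finger transcription factor that binds paired E-box sequences of the form CACCTG and mostly represses transcription, best known for silencing epithelial genes during epithelial-mesenchymal transition. Its close relative ZEB1 binds the same sequences. In fasting muscle, insulin signalling drops and glucocorticoids rise, FoxO transcription factors enter the nucleus, and genes of the ubiquitin-proteasome system and of autophagy are induced, while protein synthesis slows.

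Total counts were 35.8, 46.3 and 39.2 M in knockouts 1, 2 and 3 and 31.4, 31.9 and 36 M in controls 1, 2 and 3. The mitochondrial genome took 12.14% to 14.91% of counts in knockouts and 16% to 18.01% in controls. Pools differed in sex. Control 3 had no counts of 4 Y-linked genes, knockout 1 and control 1 had both Y-linked counts and Xist (68.3 and 190.9 CPM, counts scaled to library size), control 3 had Xist at 132.2 CPM, and in the remaining 3 libraries Xist was at most 2.984 CPM. Knockout 3 and control 3 also stood farthest apart in expression: on the first principal component of the 6 libraries (60.0% of the variance) the knockouts lay at 21.7, 20.1 and 74.3 and the controls at -28.6, -24.3 and -63.1. Results are therefore given over all 6 libraries and again for knockouts 1 and 2 against controls 1 and 2, called the matched pools. They match only in which of these counts were present: both kinds in library 1 of each group, and Y-linked counts with almost no Xist in library 2. The mix still differed, with Y-linked genes at 201.6 CPM in knockout 1 and 121.3 CPM in control 1. Sex is therefore not fully balanced in the matched pools. That the tissue was fast skeletal muscle was borne out by its myosins, since Myh4, the fast IIb heavy chain, held most adult myosin transcripts in every library. Which fast muscle it was rests on the labels and was not tested.

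Zeb2 itself (ENSMUSG00000026872.18) was lower in every knockout. It stood at 18.3, 14.4 and 17.7 CPM (scaled here with TMM factors) in knockouts 1, 2 and 3, against 24.1, 23.1 and 25.8 CPM in controls 1, 2 and 3. The groups did not overlap. The log2 fold change came to -0.53 (SE 0.13; edgeR unadjusted p = 0.00131, adjusted p = 0.0775; DESeq2 adjusted p = 0.0095), and -0.53 in the matched pools. Reads from exons outside the floxed part, and from the vessels, fibroblasts and immune cells that keep the gene, enter this count, and their part in the remaining level was not tested. In bulk muscle, fewer cells of a type and less RNA per cell cannot be told apart. Zeb1 was higher, at 67.2, 60.2 and 76.0 CPM in knockouts, against 47.7, 52.1 and 43.7 CPM in controls, which is 0.50 on the log2 scale (SE 0.14; DESeq2 adjusted p = 0.0131) and 0.35 in the matched pools. Leaving out single libraries, DESeq2 called Zeb2 in 4 of 6 omissions and Zeb1 in 3 of 6.

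No single gene passed the edgeR quasi-likelihood test over all genes, although differences were widespread. Of 15416 genes tested, 0 were called in either direction (0%) at a Benjamini-Hochberg adjusted p of 0.05, and the smallest adjusted p, 0.0775, was shared by 555 genes. An unadjusted p under 0.05 was reached by 5113 genes (33.2%), 2453 higher (15.9%) and 2660 lower (17.3%), where chance gives 770.8. At an adjusted p of 0.10 edgeR called 1224 higher (7.94%) and 1425 lower (9.24%). DESeq2 called 1400 genes higher (10.5%) and 1187 lower (8.91%) of 13319 with an adjusted p, and limma-voom called 0. Every knockout lay beyond every control for 6686 genes (43.4%). Without control 3 the DESeq2 calls numbered 47 higher and 12 lower, without knockout 3 they numbered 137 and 113, without control 1 602 and 808, without knockout 2 796 and 862, and in the matched pools 29 and 2. Upper-quartile scaling, which moved the median log2 fold change of all genes to -0.18 from -0.047 with TMM scaling, split the genes at an unadjusted p under 0.05 into 1591 higher and 3447 lower. The sign was the same over all libraries and in the matched pools for 13510 of 15293 genes (88.3%), a count that the 4 shared libraries raise. In the paragraphs that follow, higher and lower describe values, and the verbs rose and fell are kept for DESeq2 calls. These are calls over all libraries, and many were lost when 1 library was left out. The DESeq2 calls of a list are to be read beside those over all genes, 10.5% higher and 8.91% lower.

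**Figure D1:**
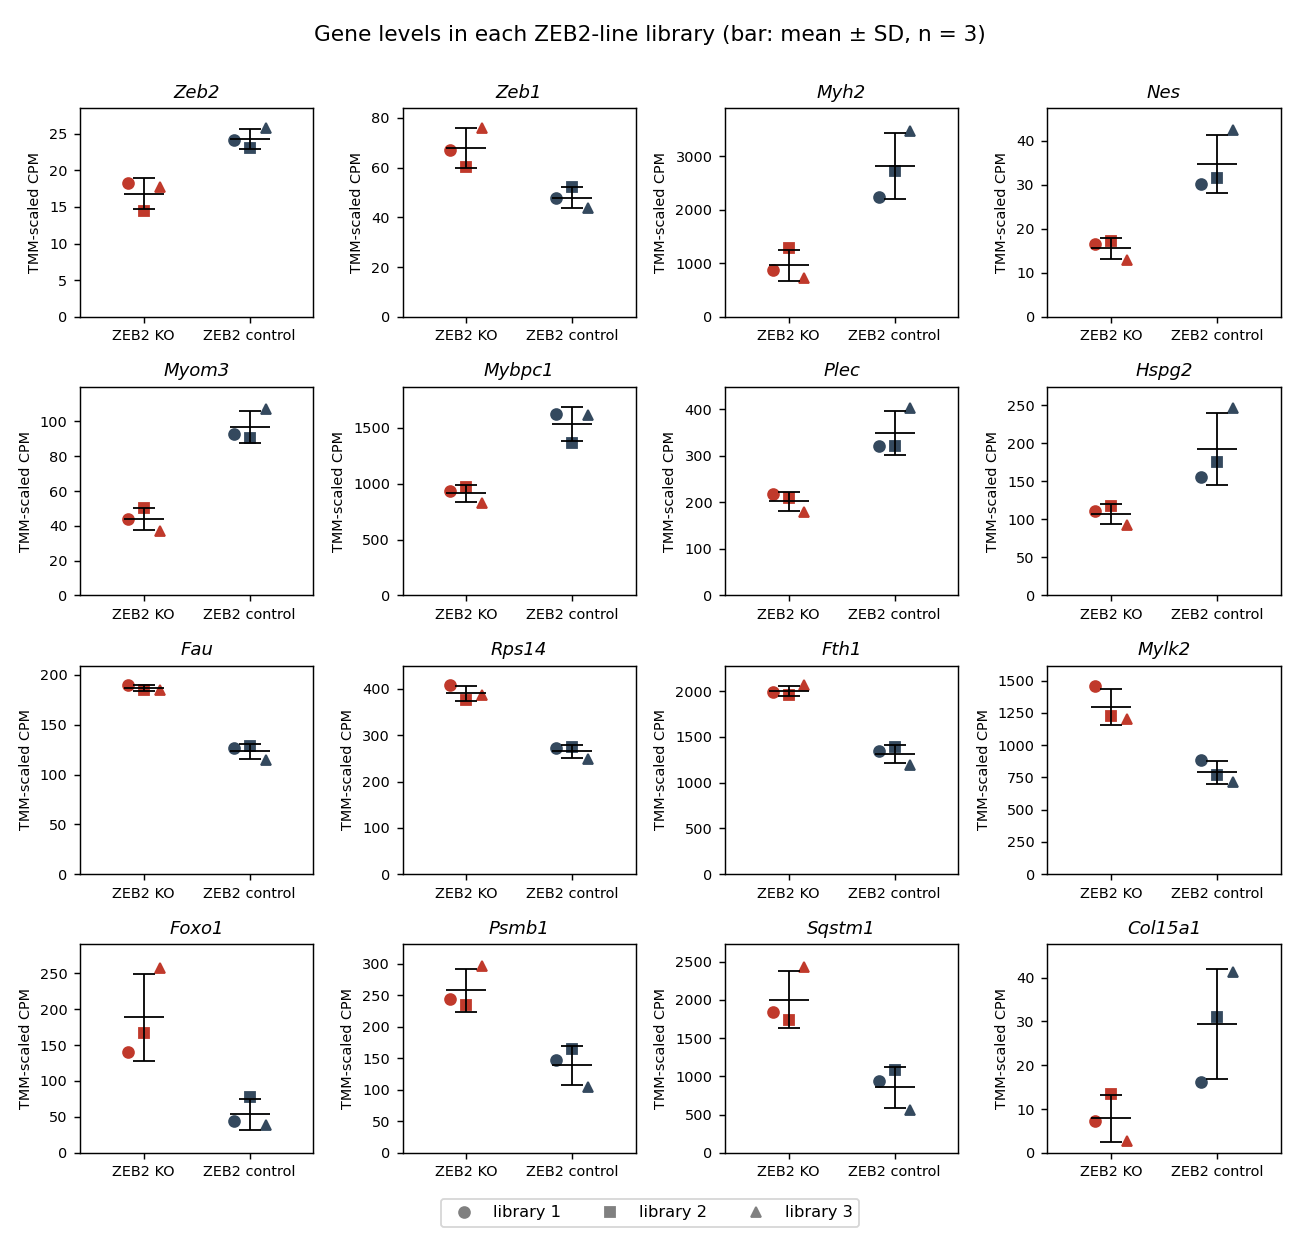
Level of 16 genes (TMM-scaled CPM, linear axes from 0) in each ZEB2 knockout and ZEB2 control library, with the mean and SD of 3 libraries. The groups do not overlap in any panel, and for Foxo1, Psmb1, Sqstm1 and Col15a1 knockout 3 and control 3 are the extreme points, whereas for Fau and Rps14 the knockouts lie close together. Several of these genes, Fau and Rps14 among them, were picked by small p and groups without overlap, which favours such closeness and separation.

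Few genes fell whichever library was left out, a count open only to genes with a defined DESeq2 adjusted p each time, and several of them belong to the contractile apparatus. DESeq2 called 12 genes lower in the full set and in each of 6 omissions (0.0901%). They were Myh2, Myom3, Mybpc1, Srl, Ppp2r3a, Sparcl1, Plec, Lynx1, Hspg2, Atp1b1, Lmo7 and one unnamed gene model, of which Srl, Ppp2r3a, Lynx1, Atp1b1 and Lmo7 are named after their values were seen. Among them are 3 proteins of the contractile filaments (Myh2, Myom3 and Mybpc1), the sarcoplasmic reticulum protein sarcalumenin (Srl), the cytoskeletal linker plectin (Plec), the sodium pump subunit Atp1b1, the nicotinic receptor modulator Lynx1, and the matrix proteins perlecan (Hspg2) and Sparcl1.

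Myh2 (ENSMUSG00000033196.17, GRCm38 chromosome 11, 67171027 to 67197517, plus strand), the myosin heavy chain of fast oxidative IIa fibres, was at 871.1, 1290 and 731.4 CPM in knockouts 1, 2 and 3, against 2237, 2732 and 3469 CPM in controls 1, 2 and 3. Every knockout was below every control. On the log2 scale the difference was -1.54 (SE 0.24; edgeR unadjusted p = 3.77e-05; DESeq2 adjusted p = 8.98e-06), and -1.20 in the matched pools (DESeq2 adjusted p = 0.0136). Nes (ENSMUSG00000004891.16, chromosome 3, 87971078 to 87980451, plus strand), the intermediate filament nestin that marks the region beneath neuromuscular and myotendinous junctions, had 16.6, 17.3 and 12.9 CPM in knockouts and at 30.2, 31.6 and 42.4 CPM in controls. The log2 fold change came to -1.15 (SE 0.18; DESeq2 adjusted p = 2.08e-05), and -0.86 in the matched pools. Both lay apart from their controls in all 6 libraries. They also head the lower genes by p among those without overlap, so that separation is no support.

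The RefSeq promoters of these genes (GRCm38.p6, 250 bases before to 50 after the annotated start) are shown because Myh2 and Nes had the smallest p of the lower genes and E-boxes are the sequences ZEB factors bind. Myh2 is at chr11:67170777-67171076 on the plus strand and Nes at chr3:87970843-87971142 on the plus strand, with any E-box CANNTG in capitals:
Myh2: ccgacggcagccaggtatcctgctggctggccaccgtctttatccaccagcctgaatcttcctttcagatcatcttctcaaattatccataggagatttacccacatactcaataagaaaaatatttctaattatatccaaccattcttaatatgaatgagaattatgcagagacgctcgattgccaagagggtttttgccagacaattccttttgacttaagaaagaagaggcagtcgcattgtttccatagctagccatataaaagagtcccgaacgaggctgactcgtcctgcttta
Nes: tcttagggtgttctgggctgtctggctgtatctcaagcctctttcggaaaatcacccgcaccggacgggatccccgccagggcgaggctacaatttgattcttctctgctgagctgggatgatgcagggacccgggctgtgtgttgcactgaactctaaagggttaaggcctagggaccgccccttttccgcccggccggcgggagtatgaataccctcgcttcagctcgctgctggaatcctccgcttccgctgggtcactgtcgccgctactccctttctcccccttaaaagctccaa
Neither window holds a CANNTG, a pattern that reads the same on both strands and that 72.3% of 32851 promoters in the table hold. The narrower ZEB-type E-box, CACCTG or its reverse complement CAGGTG, is a subset of CANNTG and occurs in 20.2% of all promoters and in 20.8% of 11179 tested genes with a promoter in the table. Among genes DESeq2 called, 15.8% of 1128 higher and 20.5% of 889 lower ones hold it. These letters describe the windows only and say nothing of where a factor was bound.

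Myosin heavy chain make-up differed between the groups, with smaller shares of IIa, IIx and slow transcripts and a larger share of IIb. Such shares are parts of one whole, so a larger Myh4 share lowers the others. As a share of the 4 adult heavy chain transcripts, counted per kb of exon, Myh2 made up 2.31%, 3.48% and 1.59% in knockouts 1, 2 and 3, against 5.49%, 7.57% and 10.8% in controls 1, 2 and 3. Myh1, the IIx chain, made up 8.31% ± 0.556 in knockouts and 16.5% ± 2.39 in controls (SD, n = 3 each). Myh7, the slow chain, made up 0.438% ± 0.14 in knockouts and 0.997% ± 0.223 in controls (SD, n = 3 each). Myh4 took 88.8% ± 1.58 in knockouts and 74.5% ± 3.96 in controls (SD, n = 3 each). None of the 4 shares overlapped between groups, and each gave an exact two-sided permutation p of 0.1, the smallest that 3 against 3 allows. Of 10 myosin heavy chains tested, 8 were lower and 2 higher, the median log2 fold change being -0.97 (-0.87 in the matched pools), and DESeq2 called 5 lower and 1 higher. By level, Myh1 was not called (DESeq2 adjusted p = 0.0739). Myh7 was called over all libraries (DESeq2 adjusted p = 0.0225) but not in the matched pools (0.325). The chains of developing muscle were scarce: Myh8, the perinatal chain, had 2.81, 2.23 and 2.42 CPM in knockouts, against 5.66, 3.64 and 5.33 CPM in controls (log2 fold change -0.97).

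**Figure D2:**
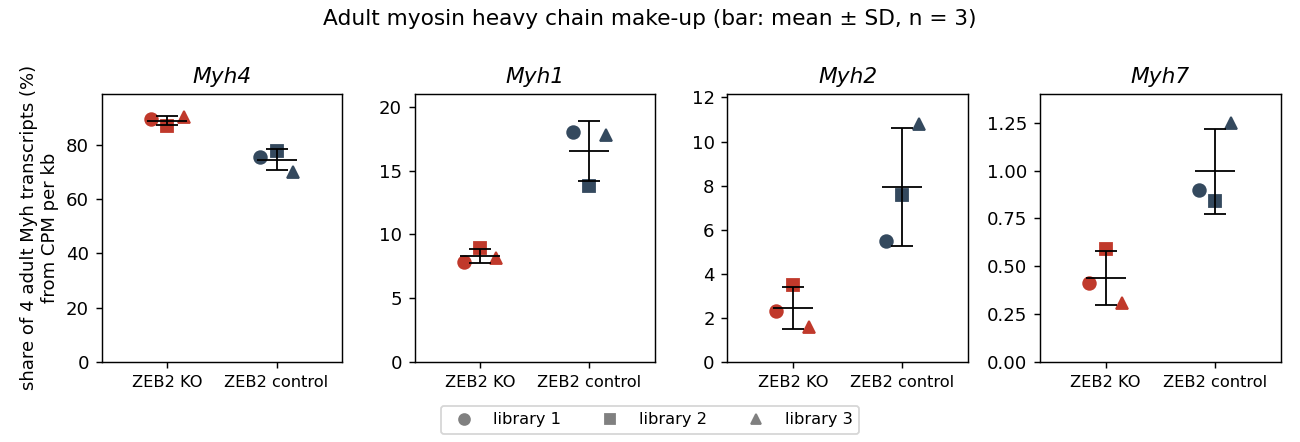
Share (%) of each of the 4 adult myosin heavy chains among their summed transcripts per kb of exon in each ZEB2 knockout and ZEB2 control library, with mean and SD of 3 libraries. Myh4 has a larger share and Myh1, Myh2 and Myh7 smaller shares in all 3 knockouts, with no overlap.

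Slow-fibre genes were lower as a group, and genes of fast fibres had no common direction. Of 17 slow-fibre genes 16 were lower and 1 higher (median log2 fold change -0.53, -0.34 in the matched pools and -0.33 without knockout 3), and DESeq2 called 3 lower, with an unadjusted edgeR p under 0.05 for 7. Casq2, the calcium buffer of slow sarcoplasmic reticulum, stood at 27.1, 45.6 and 15.2 CPM in knockouts, against 76.1, 80.3 and 114.6 CPM in controls (log2 fold change -1.62, SE 0.45; DESeq2 adjusted p = 0.00664). Mb, the oxygen store myoglobin, was at 1666, 2171 and 1385 CPM in knockouts and 2252, 2391 and 2677 CPM in controls (-0.49; DESeq2 adjusted p = 0.0697), which is not a call. The 20 fast-fibre genes split 10 higher and 10 lower, and their median of 0.030 turned to -0.092 under upper-quartile scaling. Tnnt3, fast troponin T, rose in DESeq2 (adjusted p = 0.0389), at 20631, 20119 and 20459 CPM in knockouts and 15234, 17662 and 15214 CPM in controls. Casq1, the fast-fibre counterpart of Casq2, was called lower by DESeq2 (adjusted p = 0.0398), although knockout 2 (802.9 CPM) was above control 1 (775.8 CPM). With single libraries left out, DESeq2 called Tnnt3 in 1 of 6 omissions and Casq1 in 2 of 6.

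In the sarcomere and the costamere, which anchors it to the membrane, individual genes differed while the list as a whole had no steady direction. Of 37 genes 20 were higher and 17 lower, and DESeq2 called 2 higher and 9 lower. In the matched pools 14 were higher and 23 lower (median -0.089), with 0 higher and 8 lower at an unadjusted p under 0.05. Their summed level was higher in every knockout, at 78927 to 81310 CPM in knockouts and 74680 to 77424 CPM in controls. Myom3, an M-band protein of IIa and slow fibres, had 43.8, 50 and 37.3 CPM in knockouts, against 92.7, 90.2 and 107.4 CPM in controls (-1.15, SE 0.18; DESeq2 adjusted p = 2.07e-05). Mybpc1, slow myosin-binding protein C, had 933.1, 974.0 and 830.6 CPM in knockouts and 1625, 1362 and 1617 CPM in controls (-0.75, SE 0.13; 0.000325). Sgcd, delta-sarcoglycan of the dystrophin complex, and Xirp2, an actin-binding repair protein, also fell (-1.10 and -0.67; DESeq2 adjusted p = 0.00356 and 0.00933). Among intermediate filament genes and their linkers, 7 of 12 were lower. Plec stood at 218.9, 208.9 and 178.7 CPM in knockouts and 321.9, 320.9 and 403.4 CPM in controls (-0.79, SE 0.16; DESeq2 adjusted p = 0.00131).

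Most genes of a mixed list of denervation and neuromuscular junction genes were lower, including a subunit of the acetylcholine receptor and the enzyme that clears its ligand. Of 28 tested, 24 were lower (median log2 fold change -0.49, and -0.46 in the matched pools), with 10 called lower and 1 higher by DESeq2 and 16 and 2 at an unadjusted p under 0.05. Ache, acetylcholinesterase, was at 5.55, 6.26 and 2.17 CPM in knockouts, against 11.6, 12.4 and 16.8 CPM in controls (-1.54, SE 0.41; DESeq2 adjusted p = 0.00653). Its anchoring collagen Colq and the receptor subunit Chrnd also fell (-0.91 and -0.98; 0.0123 and 0.0152). Dach2, a corepressor that links nerve activity to receptor genes, had 0.926, 1.22 and 1.04 CPM in knockouts and 3.12, 3.25 and 2.88 CPM in controls (-1.53, SE 0.25; 0.000119). The summed level of this mixed list overlapped between groups, at 647.3, 664.3 and 839.9 CPM in knockouts and 709.0, 734.4 and 687.0 CPM in controls, with knockout 3 the highest library. The 18 Schwann cell markers were lower too (median -0.82, and -0.41 without control 1), and their summed level ran from 212.7 to 332.8 CPM in knockouts and from 309.2 to 598.6 CPM in controls, which overlap. The part of Schwann cells in the result for the mixed list was not tested.

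Most genes of excitation and calcium handling were also lower, though not the most abundant one. Of 27 calcium and excitation-contraction genes, 23 were lower (median -0.43, and -0.33 in the matched pools), and DESeq2 called 10 lower and 1 higher. Their summed level went the other way, at 32838, 30629 and 33610 CPM in knockouts and 30336, 28223 and 26761 CPM in controls, without overlap. Most of that sum was Atp2a1, the fast-fibre calcium pump, at 25380, 23230 and 27300 CPM in knockouts and 21978, 18911 and 16552 CPM in controls (0.40, SE 0.17; DESeq2 adjusted p = 0.104), which is not a call. Hrc, the histidine-rich calcium-binding protein of the sarcoplasmic reticulum, had 334.1, 333.4 and 255.8 CPM in knockouts and 466.0, 461.7 and 521.8 CPM in controls (-0.65, SE 0.17; DESeq2 adjusted p = 0.0117). Stim1, the calcium sensor of store-operated entry, fell as well (-0.43; 0.0234), whereas Jph1, which ties the reticulum to the transverse tubule, rose (0.44; 0.0238). With single libraries left out, DESeq2 called Stim1 in 0 of 6 omissions and Jph1 in 2 of 6. Kcna7, a voltage-gated potassium channel of muscle, stood at 11.3, 10.8 and 8.73 CPM in knockouts, against 19.5, 27.3 and 32.3 CPM in controls (-1.36, SE 0.21; 2.08e-05). Mef2c, a transcription factor of fibre type and calcium signalling, was at 106.5, 120.4 and 51.2 CPM in knockouts and 189.4, 249.1 and 331.1 CPM in controls (-1.47, SE 0.40; 0.00703). The groups did not overlap for any gene named in this paragraph, as for 43.4% of all genes tested. All were named by small p, within a list or over all genes, which favours such separation, and for Kcna7 absence of overlap was part of its choice.

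Cytosolic ribosomal protein genes were higher together, with nearly the same median change over all 6 libraries as in the matched pools. Relative to the control mean, the list median lay at 0.50, 0.39 and 0.31 in knockouts 1, 2 and 3. It lay at 0.073, 0.02 and -0.092 in controls 1, 2 and 3. All 82 tested were higher in knockouts, 76 with no overlap between groups (21.3% of all genes were higher without overlap), and DESeq2 called 72 higher and 0 lower. Their median log2 fold change was 0.41, and 0.40 in the matched pools, where 66 still had an unadjusted edgeR p under 0.05 (2.75% of all genes were higher and 4.68% lower at that p). Upper-quartile scaling left the ribosomal median at 0.29. Their summed level was 27449, 25682 and 24647 CPM in knockouts 1, 2 and 3, against 20765, 20016 and 18548 CPM in controls 1, 2 and 3. All 3 knockouts lay above all 3 controls, with the highest knockout value in knockout 1.

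Fau and Rps14 were named by small p among genes without overlap, a choice that favours a narrow spread between libraries. Fau, a ubiquitin-like fusion that yields the small-subunit protein eS30, had 190.0, 185.2 and 185.1 CPM in knockouts and 126.8, 128.5 and 114.3 CPM in controls (log2 fold change 0.60, SE 0.11; edgeR unadjusted p = 0.000234, DESeq2 adjusted p = 2.76e-05). Rps14, of the small subunit, had 409.0, 376.4 and 386.2 CPM in knockouts and 272.8, 274.5 and 249.7 CPM in controls (0.56, SE 0.11; 2.08e-05). Both passed DESeq2 in the matched pools as well (adjusted p = 0.0303 for each). Near-identical pseudogene copies exist for many ribosomal genes, so a single gene's count is uncertain where reads could be shared. Of the 44 genes that DESeq2 called higher in the full set and in each omission (0.33%), 27 were on the ribosomal list and 4 on the list of translation factors. That count favours abundant genes, since DESeq2 left the adjusted p of many scarcer ones undefined without control 3, among them Rnf126 and Eif4ebp3, which it called in the other 5 omissions.

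Genes with few bases of exon were slightly higher in general, and 12 of the 82 ribosomal genes have up to 1000 bases of exon. Exon length here merges the exons of all annotated transcripts of a gene, so it can exceed the length of any single transcript. The median log2 fold change was 0.13 for 868 tested genes with up to 1000 bases of exon and -0.076 for 2497 genes above 8000 bases. The 70 ribosomal genes above 1000 bases had a median of 0.39, and the 856 other genes up to 1000 bases one of 0.11. Across 15401 genes Spearman's rho of exon length and fold change was -0.06, and -0.15 in the matched pools. Merged lengths cannot tell which ribosomal transcripts are short, and the part of transcript length in the ribosomal result was not tested.

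Ribosomal mRNAs are known to begin with a run of pyrimidines, the 5′ terminal oligopyrimidine (TOP) tract through which mTOR signalling adjusts their translation. Around the RefSeq start, 27 of 61 ribosomal genes with a promoter in the table (44.3%) had at least 8 C or T in a row on the sense strand, touching the bases from 5 before the start or beginning within 10 after it, against 14.7% of 11179 tested genes. Fau and 3 further ribosomal genes with such a run, picked by smallest p after the values were seen and leaving out some chromosomes, are shown as examples from 20 bases before to 30 after the start (GRCm38.p6), with the run in capitals. Fau is at chr19:6057927-6057976 (plus strand), Rps27 at chr3:90213619-90213668 (minus), Rpl7a at chr2:26910787-26910836 (plus) and Rpl34 at chr3:130730308-130730357 (minus):
Fau: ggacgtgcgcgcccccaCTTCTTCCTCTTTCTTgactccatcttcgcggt
Rps27: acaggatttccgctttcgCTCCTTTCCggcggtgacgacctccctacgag
Rpl7a: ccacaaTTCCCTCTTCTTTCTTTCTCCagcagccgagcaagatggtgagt
Rpl34: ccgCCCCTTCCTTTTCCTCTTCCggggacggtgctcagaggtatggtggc
The run is 16 bases long in Fau, 9 in Rps27, 21 in Rpl7a and 20 in Rpl34. Counts here measure RNA, not translation. Such a run was found in 15.4% of 39 translation factor genes with a promoter there.

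Translation factors and ribosome assembly genes shared the direction. Of 49 translation factors 45 were higher (median 0.43, and 0.28 in the matched pools), and DESeq2 called 29 higher and 1 lower. Eif3k, a subunit of initiation factor 3, was at 86.4, 83.6 and 82.9 CPM in knockouts, against 61.0, 58.6 and 56.7 CPM in controls (0.52, SE 0.11; DESeq2 adjusted p = 0.000107). Eef2k, the kinase that halts elongation, was the member called lower, at 27.5, 23.3 and 15.4 CPM in knockouts and 47.9, 35.4 and 41.5 CPM in controls (-0.91, SE 0.23; 0.0102). Eif4ebp3, an inhibitor of cap-dependent initiation named by its rank, had 3.11, 3.41 and 2.45 CPM in knockouts and 1.18, 0.902 and 0.70 CPM in controls (1.69, SE 0.31; 0.000251). Of 28 ribosome biogenesis genes 26 were higher (median 0.46, and 0.26 in the matched pools), and DESeq2 called 9 higher and 0 lower, among them Nop10 of the RNA-guided pseudouridylation complex (0.62; 0.0093).

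**Figure D3:**
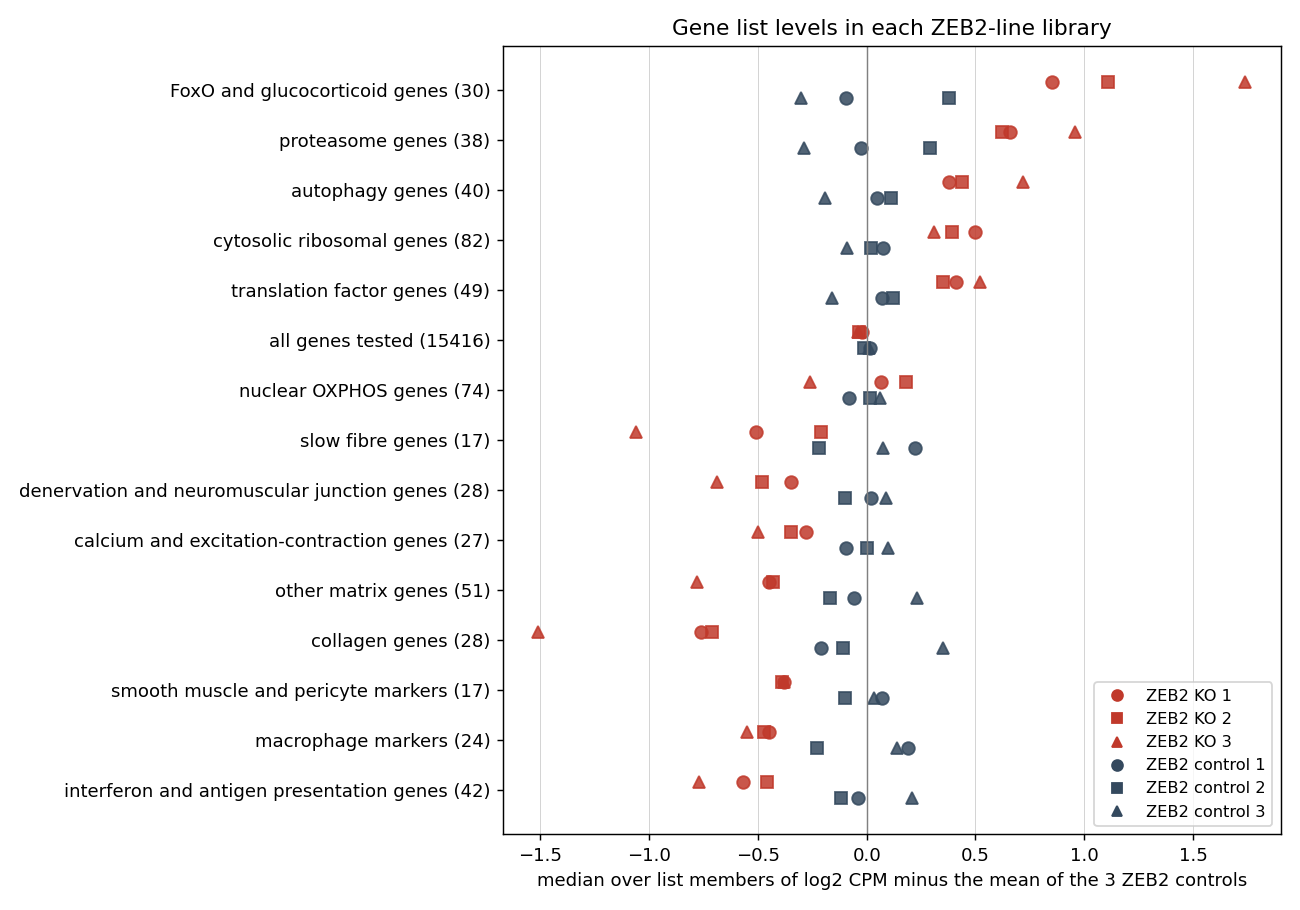
Median over each gene list (number tested in brackets) of log2 CPM minus the mean of the 3 ZEB2 controls, 1 point per library, knockouts above controls in each row. Ribosomal genes are highest in knockout 1, while FoxO, proteasome, autophagy, collagen and slow-fibre lists reach their extreme in knockout 3.

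Protein breakdown genes were higher in knockouts than in controls that had fasted as long, by an amount that varied between pools. Of 38 proteasome genes 36 were higher, the median log2 fold change being 0.74, and DESeq2 called 32 higher and 0 lower. Psmb1, a subunit of the catalytic core, had 243.4, 233.8 and 296.6 CPM in knockouts, against 147.5, 165.2 and 104.7 CPM in controls (0.89, SE 0.23; DESeq2 adjusted p = 0.0084). The groups did not overlap, with knockout 3 highest and control 3 lowest. In the matched pools 37 of 38 were still higher, with a median of 0.50, and 3 had an unadjusted p under 0.05 in edgeR. The summed level of the list was 8397, 8256 and 10757 CPM in knockouts and 4985, 6351 and 4084 CPM in controls.

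Autophagy genes were higher too, with a smaller median. Of 40 tested 38 were higher (median 0.53, and 0.31 in the matched pools), and DESeq2 called 18 higher and 0 lower. Sqstm1, the cargo receptor p62, stood at 1840, 1734 and 2429 CPM in knockouts, against 936.2, 1077 and 560.7 CPM in controls (1.22, SE 0.35; DESeq2 adjusted p = 0.0107). Gabarapl2 and Gabarap, which coat the growing autophagosome, rose by 0.46 and 0.53 (0.00653 and 0.0186). Lysosome genes were mixed, with 24 of 38 higher: Gaa, which breaks down glycogen, rose (1.17; 0.0139), whereas the lipid-processing enzymes Ppt1 and Asah1 fell (-0.90 and -0.46; 0.00622 and 0.00466).

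Ubiquitin and the ligases of atrophy were higher with wide spread. Of 31 atrophy ubiquitin genes 22 were higher and 9 lower (median 0.38, and 0.31 in the matched pools), and DESeq2 called 14 higher and 2 lower. Ubb, a polyubiquitin gene, was at 2556, 2695 and 3967 CPM in knockouts, against 1141, 1788 and 789.9 CPM in controls (1.31, SE 0.38; DESeq2 adjusted p = 0.00977). Of the best-known atrophy ligases, named after their values were seen, Fbxo32 (atrogin-1) had 3300, 3330 and 5024 CPM in knockouts and 1950, 2147 and 973.2 CPM in controls (1.20, SE 0.46; 0.0349). Trim63 (MuRF1) had 5157, 4973 and 7378 CPM in knockouts and 2139, 3197 and 956.2 CPM in controls (1.48, SE 0.71; 0.112), which is not a call. In both, knockout 3 was the highest library and control 3 the lowest. Fbxo40, a ligase that targets the insulin receptor substrate, fell (-0.58; 0.0402), though DESeq2 called it in only 1 of 6 omissions.

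FoxO and glucocorticoid genes, the upstream arm of this programme, had the largest positive median of the lists tested. Of 30 tested 25 were higher, the median log2 fold change being 1.23, and 0.71 in the matched pools, and DESeq2 called 11 higher and 0 lower. Foxo1 stood at 140.8, 167.0 and 257.3 CPM in knockouts, against 44.7, 77.8 and 38.1 CPM in controls (1.82, SE 0.52; DESeq2 adjusted p = 0.0057). Arrdc2, a glucocorticoid-responsive arrestin, was at 203.8, 205.4 and 337.5 CPM in knockouts and 67.9, 109.4 and 53.7 CPM in controls (1.69, SE 0.46; 0.00456). In the matched pools 0 of the 30 had an unadjusted p under 0.05 in edgeR, and Foxo1 was at 1.33 (DESeq2 adjusted p = 0.208). The same list differed between libraries of 1 group: its median lay at 0.85, 1.11 and 1.74 in knockouts and at -0.096, 0.38 and -0.30 in controls, relative to the control mean.

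Extracellular matrix genes were lower. Of 28 collagen genes 25 were lower and 3 higher (median log2 fold change -1.03, and -0.61 in the matched pools), and DESeq2 called 16 lower and 0 higher. Their summed level was 577.7, 683.0 and 381.9 CPM in knockouts, against 834.9, 1122 and 1549 CPM in controls, without overlap. Col5a2, a chain that starts collagen fibrils, had 21.3, 20.8 and 13.1 CPM in knockouts and 30.2, 32.1 and 39.9 CPM in controls (-0.89, SE 0.22; DESeq2 adjusted p = 0.0095). Col8a1 of small vessels and Col16a1 of fibril surfaces fell by 1.03 and 1.12 on the log2 scale (0.00426 and 0.00589). Of the 51 other matrix genes 47 were lower (median -0.57, and -0.36 in the matched pools), and DESeq2 called 20 lower and 0 higher.

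The other matrix genes with the smallest p were Fmod, Sparcl1, Lama4 and Hspg2. Hspg2, the basement membrane proteoglycan perlecan, had 111.3, 117.8 and 92.6 CPM in knockouts, against 155.6, 176.1 and 246.2 CPM in controls (-0.85, SE 0.18; DESeq2 adjusted p = 0.00271). Lama4, a laminin chain of vessels, fell too (-1.06; 0.0016), and so did Fmod, the collagen-binding proteoglycan fibromodulin (-1.48; 0.000325). Sparcl1, a counter-adhesive secreted protein, stood at 105.7, 102.5 and 97.0 CPM in knockouts and 177.0, 148.5 and 192.0 CPM in controls (-0.76, SE 0.15; 0.000691). Not all matrix genes were lower to this degree: Dcn, the fibroblast proteoglycan decorin and named after its values were seen, was at 561.8, 493.9 and 493.5 CPM in knockouts and 596.4, 449.0 and 543.6 CPM in controls, which overlap.

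Markers of the cells that make matrix were lower by count, with overlapping sums for fibroblasts. Of 22 fibroblast and fibro-adipogenic markers 17 were lower (median -0.33, -0.19 in the matched pools and -0.17 without knockout 3), 5 were called lower by DESeq2, and their summed level ran from 2054 to 2241 CPM in knockouts and from 1947 to 2407 CPM in controls, which overlap. Col15a1, a marker of the adventitial and fibro-adipogenic cells, had 7.35, 13.5 and 2.67 CPM in knockouts and 16.2, 31.1 and 41.2 CPM in controls (-1.91, SE 0.60; DESeq2 adjusted p = 0.0105). Tendon markers were lower for 13 of 14 genes (median -1.37, and -0.88 in the matched pools), and their summed level ran from 90.8 to 114.9 CPM in knockouts and from 143.7 to 267.0 CPM in controls, without overlap. How much tendon each dissection held was not measured, and its part in the collagen result was not tested.

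Markers of other resident cell types were mostly lower by count, while their summed levels differed by type. Smooth muscle and pericyte markers were lower for 16 of 17 genes (median -0.44, and -0.36 in the matched pools), with 6 called lower by DESeq2. Their summed level went the other way, at 3373 to 3623 CPM in knockouts and 3030 to 3284 CPM in controls. Mcam, the adhesion molecule CD146 of pericytes and endothelium, had 16.9, 17.9 and 15.3 CPM in knockouts, against 27.4, 25.2 and 34.4 CPM in controls (-0.80, SE 0.15; DESeq2 adjusted p = 0.00105). Among 24 macrophage markers 22 were lower (median -0.49, and -0.38 in the matched pools), with 3 called lower by DESeq2, beside 8.91% of all genes. They summed to between 182.9 and 207.7 CPM in knockouts and between 217.8 and 298.8 CPM in controls. Mrc1, the mannose receptor of resident macrophages, stood at 8.18, 8.24 and 5.32 CPM in knockouts and 11.6, 12.4 and 16.6 CPM in controls (-0.90, SE 0.23; 0.0123). Endothelial markers were lower for 15 of 22 genes with a median of -0.15 (-0.045 without control 1 and -0.24 without control 2). DESeq2 called 2 of them lower and 1 higher, near or below its shares of all genes (8.91% lower and 10.5% higher). The summed levels of the endothelial markers overlapped (1627 to 1863 CPM in knockouts, 1655 to 1966 CPM in controls). Neutrophil and lymphocyte markers were near the detection limit, with 10 of 24 tested and no counts of Ly6g in any knockout or control. Cd3e had no counts in knockouts and 0, 0.0967 and 0.0538 CPM in controls 1, 2 and 3.

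**Figure D4:**
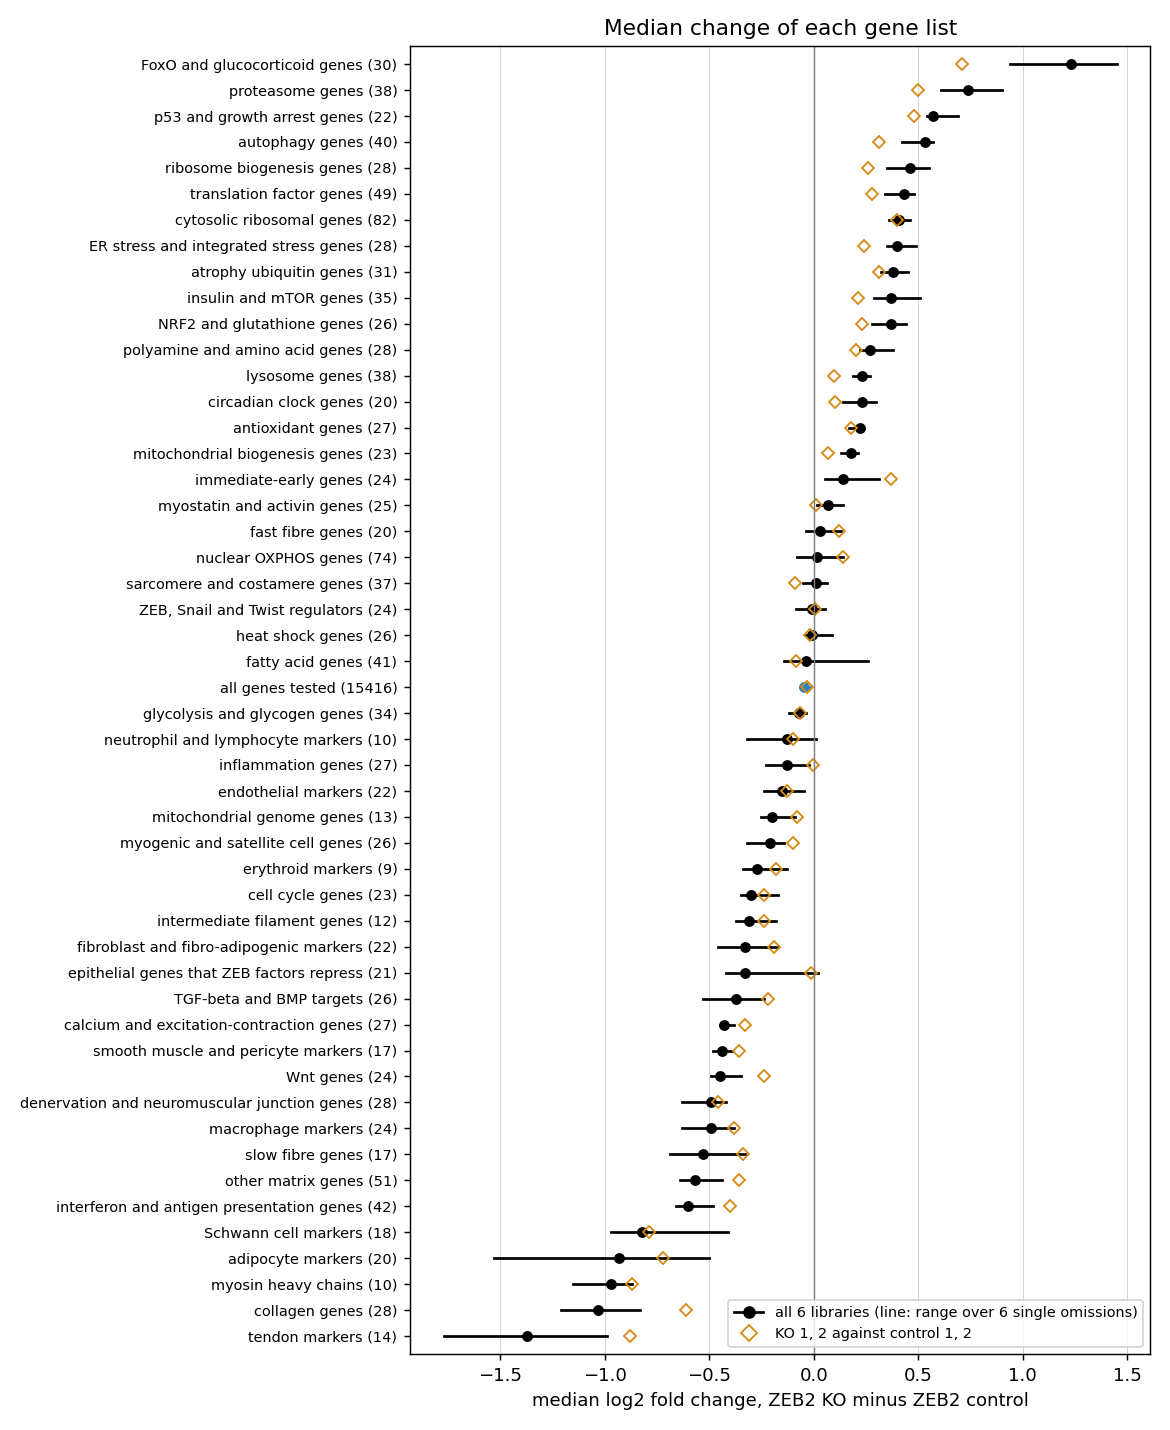
Median log2 fold change, ZEB2 knockout minus ZEB2 control, of 49 gene lists and of all genes tested (blue), with the number tested in brackets. Filled points use all 6 libraries, lines give the range over omissions of 1 library each, and open diamonds give knockouts 1 and 2 against controls 1 and 2; the ribosomal diamond, at 0.40, nearly covers its point, and the FoxO, proteasome and collagen diamonds lie nearer 0.

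Adipocyte markers were mostly lower and glycolysis was mixed. Of 20 adipocyte markers 18 were lower (median -0.93, and -0.72 in the matched pools), with 6 called by DESeq2. The median was -0.50 without control 1, -0.54 without knockout 3 and -1.53 without knockout 1, and the summed level overlapped between groups, at 3269 to 4401 CPM in knockouts and 4139 to 4634 CPM in controls. Fasn, fatty acid synthase, which muscle fibres also express, was at 17.8, 13.1 and 13.1 CPM in knockouts, against 24.7, 71.2 and 101.9 CPM in controls (-2.17, SE 0.48; DESeq2 adjusted p = 0.00033). Acaca, the acetyl-CoA carboxylase that feeds it, had 22.4, 16.6 and 17.1 CPM in knockouts and 40.2, 35.3 and 46.8 CPM in controls (-1.12, SE 0.23; 0.00167). Of 34 glycolysis and glycogen genes 13 were higher and 21 lower. DESeq2 called 2 higher and 3 lower, near or below its shares of all genes (10.5% higher and 8.91% lower). The lower ones were Ldhb, Phka1 and Slc16a3 (-0.64, -0.61 and -0.98; 0.0343, 0.0375 and 0.0273). Aldoa, the muscle aldolase, had 16599, 16435 and 16289 CPM in knockouts and 11797, 13280 and 11840 CPM in controls (0.42, SE 0.11; 0.0112).

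Nuclear genes of oxidative phosphorylation had no common direction over all libraries, and most genes of the mitochondrial genome were lower. Of 13 mitochondrial genome genes 11 were lower and 2 higher (median -0.20, -0.079 in the matched pools and -0.088 without knockout 3), and DESeq2 called 0, with 1 lower at an unadjusted edgeR p under 0.05. The 74 nuclear OXPHOS genes split 39 higher and 35 lower, with DESeq2 calling 1 in each direction. In the matched pools 56 were higher and 18 lower (median 0.14), with 7 higher and 1 lower at an unadjusted p under 0.05. Their median of 0.014 over all libraries turned negative under upper-quartile scaling and without control 1, knockout 1 or knockout 2. Ndufs1, the iron-sulphur subunit of complex I, fell at 239.4, 231.0 and 199.6 CPM in knockouts, against 307.7, 343.8 and 357.7 CPM in controls (-0.59, SE 0.14; DESeq2 adjusted p = 0.00532), while Ndufa7 of the same complex rose (0.49; 0.00149). The 23 regulators of mitochondrial biogenesis split 12 higher and 11 lower (median 0.18, and 0.069 in the matched pools), and DESeq2 called 4 lower and 0 higher. Perm1, a muscle regulator of oxidative genes, stood at 52.2, 59.9 and 25.3 CPM in knockouts and 94.0, 103.7 and 138.6 CPM in controls (-1.29, SE 0.34; 0.00669). Fatty acid genes split 19 higher and 22 lower of 41, and DESeq2 called 1 higher and 0 lower, below its shares of all genes (10.5% and 8.91%). That one was Pdk4, the kinase that spares glucose in fasting, called in 1 of 6 omissions. Pdk4 was at 4652, 4252 and 5437 CPM in knockouts and 3076, 3403 and 1155 CPM in controls (0.91; 0.0398).

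Redox and stress genes rose in part. Fth1, the ferritin heavy chain that stores iron, had 1988, 1956 and 2066 CPM in knockouts, against 1349, 1393 and 1197 CPM in controls (0.61, SE 0.12; DESeq2 adjusted p = 0.000539), and DESeq2 called it in each of 6 omissions. Of 26 NRF2 and glutathione genes 21 were higher (median 0.37, and 0.23 in the matched pools), and DESeq2 called 7 higher and 2 lower, the lower ones being Tkt and G6pdx of the pentose phosphate pathway (-1.06 and -0.76; 0.00563 and 0.0142). Of 28 genes of ER and integrated stress 22 were higher (median 0.40, and 0.24 in the matched pools), with 8 called higher and 2 lower. Ern1, the stress sensor IRE1, had 40.1, 35.4 and 47.1 CPM in knockouts and 21.9, 14.5 and 12.7 CPM in controls (1.32, SE 0.36; 0.00778). Heat shock genes split 13 and 13: the small chaperone Cryab, which protects desmin and titin, fell (-0.78; 0.0121), and Hsp90ab1 rose (0.70; 0.0272).

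Growth arrest, early response and immune genes differed by member. Of 22 p53 and growth arrest genes 15 were higher and 7 lower, and DESeq2 called 7 higher and 3 lower. Of 24 immediate-early genes 14 were higher and 10 lower. DESeq2 called 2 of these higher and 0 lower, below its shares of all genes (10.5% higher and 8.91% lower). Gadd45g, a stress-induced cell cycle inhibitor, stood at 76.9, 140.0 and 262.7 CPM in knockouts, against 20.3, 33.5 and 17.9 CPM in controls (2.74, SE 0.66; DESeq2 adjusted p = 0.00393). Every knockout was above every control, and the knockouts themselves differed widely. Plk2, a kinase of the p53 response, was tighter, at 9.97, 9.5 and 9.54 CPM in knockouts and 16.9, 16.7 and 17.1 CPM in controls (-0.80, SE 0.13; 0.000223). Plk2 was named by small p among genes without overlap, a choice that favours a narrow spread. Of 42 interferon and antigen presentation genes 38 were lower (median -0.60, and -0.40 in the matched pools), with 10 called lower by DESeq2. Parp14, an interferon-induced ADP-ribosyltransferase, had 8.12, 8.26 and 6.73 CPM in knockouts and 14, 12.2 and 16.3 CPM in controls (-0.88, SE 0.24; 0.0156). Inflammation genes split 10 higher and 17 lower of 27, with 1 called in each direction by DESeq2, also below those shares. The one called higher was Nfkbia, the NF-kappaB inhibitor (1.27; 0.00488).

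Epithelial genes, the classic targets of ZEB repression, were scarce and did not move together. Of 40 listed 21 were tested, 9 higher and 12 lower. DESeq2 called 2 higher and 0 lower, near or below its shares of all genes (10.5% higher and 8.91% lower). Their median of -0.33 came to -0.013 in the matched pools and to 0.021 without knockout 3. Krt18, a simple-epithelial keratin, had 1.91, 2.05 and 2.39 CPM in knockouts, against 1.14, 0.193 and 0.269 CPM in controls (1.98, SE 0.58; DESeq2 adjusted p = 0.0118). Jup, plakoglobin, which heart and muscle also use, had 263.0, 262.7 and 330.0 CPM in knockouts and 168.6, 212.2 and 165.3 CPM in controls (0.65, SE 0.17; 0.0109). Epcam, Esrp1, Cldn7 and Dsg2, which define epithelia, were absent or nearly so from both groups. Epcam and Dsg2 had no counts in any knockout or control, and Esrp1 and Cldn7 had counts in control 3 alone (0.0269 and 0.0538 CPM). Genes of TGF-beta and BMP signalling, with which ZEB2 interacts through SMAD proteins, were lower for 25 of 26 (median -0.37, -0.22 in the matched pools and -0.24 without control 3), with 4 called lower by DESeq2. Among them Tgfb2, a ligand, stood at 4.57, 4.53 and 3.41 CPM in knockouts and 10, 10.8 and 13.6 CPM in controls (-1.46, SE 0.34; 0.00341).

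The genes with the smallest p in each direction included several outside these groups. Rnf126 (chromosome 10, 79758515 to 79766952, minus strand), a ubiquitin ligase for mislocalised membrane proteins, was at 58.9, 61.0 and 62.2 CPM in knockouts, against 33.8, 39.6 and 29.0 CPM in controls (0.83, SE 0.14; edgeR unadjusted p = 0.00012, DESeq2 adjusted p = 0.000181). Aup1, a lipid droplet protein that recruits degradation enzymes, had 76.8, 78.0 and 90.7 CPM in knockouts and 52.5, 53.5 and 45.1 CPM in controls (0.70; 0.0011). Exosc5 of the RNA exosome, the general transcription factor Gtf2b and the proton pump subunit Atp6v1f were higher by 0.74, 0.80 and 0.55 (0.00167, 0.00244 and 0.00105). In the other direction, Tmem178b was at 0.299, 0.598 and 0.366 CPM in knockouts and 1.92, 2.16 and 1.96 CPM in controls (-2.23, SE 0.41; 0.000275). These genes were picked partly for groups that did not overlap, so that separation is no support.

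Whether the ZEB2 effect differed from that of the ZEB1 knockout against its own floxed controls was asked in the same fit. EdgeR called 0 genes for the difference (smallest adjusted p 0.139), with 643 at an unadjusted p under 0.05 in the direction of a more positive ZEB2 effect (4.17%) and 784 in the other (5.09%), and DESeq2 called 6 and 11. Those 1427 genes became 300 without ZEB1 control 3, 3127 without ZEB1 control 2, 699 without ZEB2 control 3 and 799 without ZEB2 knockout 3. Those called with a more negative ZEB2 effect included Nes: the ZEB1 line had 19.1, 22 and 25.2 CPM in its 3 knockouts and 21.4 and 18.9 CPM in its 2 controls, and the difference of effects was -1.29 (SE 0.26; DESeq2 adjusted p = 0.0223). Zeb1, deleted in that line, differed by 1.17 (0.00212), and Noct, the rhythmically expressed nocturnin, by -1.49 (0.000364). Noct had 12.9, 14.4 and 13 CPM in ZEB1 knockouts and 6.94 and 6.51 CPM in ZEB1 controls. In the ZEB2 line Noct was at 6.54, 6.83 and 6.17 CPM in knockouts and 7.36, 9.21 and 10.9 CPM in controls. That change of -0.49 was not a DESeq2 call. Myh2 was not called, at 1329, 1655 and 1711 CPM in ZEB1 knockouts and 2811 and 2048 CPM in ZEB1 controls, a difference of effects of -0.91 (SE 0.35; DESeq2 adjusted p = 0.404). The ribosomal median of the difference was 0.31, beside -0.06 for all genes.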

How the data were processed

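Per the labels' protocols, poly(A) RNA was sequenced from stranded libraries. The authors deposited estimated counts for each gene, unnormalized and whole. The submitters' processing notes list STAR, RSEM, DESeq2 and GRCm38 and no versions; annotation, strand handling and settings: not given in the sources used here. That these are estimated counts was judged from the values and the naming of RSEM. Overlapping, antisense and near-identical genes are uncertain under such counting.

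Of 55385 genes, 15416 passed filterByExpr (minimum count 10, minimum total 15) and held 99.96% of counts. EdgeR 4.0.16 in R 4.3.3 (TMM scaling, robust quasi-likelihood fit over all 11 libraries with 4 group means) gave ZEB2 knockout minus control and the difference from the ZEB1 effect, with Benjamini-Hochberg adjustment over all genes at 0.05. Each SE was obtained from the log2 fold change and its F statistic, as their ratio after taking the root of F. CPM values were computed here. The biological coefficient of variation was 0.24. DESeq2 1.42.0 and limma-voom (limma 3.58.1) were alternatives, as were other scalings and filters, single omissions, matched pools and a replicate block; omissions under DESeq2 were added after seeing the data. The script was tested on simulated data. An adjusted p that DESeq2 left undefined was kept so. No replicate pair agreed within counting noise, the chi-square per degree of freedom being 16.3 to 101 between libraries of a group.

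Members and gene lists were chosen with earlier results of these data known. Named genes were Zeb2, Zeb1, Myh2 and Nes, the 15 genes per direction with the smallest edgeR p among protein-coding genes with a mean of at least 1 CPM and no overlap between groups, up to 4 members per list by p, and up to 5 genes per direction called for the difference of effects. Unnamed gene models, Xist and Y-linked genes were passed over. Coordinates come from GENCODE M21 and sequences from RefSeq promoters. A p printed in brackets after a log2 fold change is the DESeq2 adjusted p. Some named genes are not reported here.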

Additional observations from a re-analysis of the deposited data

How the results depend on the processing

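None of the 206 named genes reversed in 3486 settings, an outcome that their choice by smallest p and, for the leading genes, by groups without overlap largely fixed. List medians moved by less than the spread between libraries in 562 of 599 settings. The edgeR calls, 0 in each direction, became 1400 higher and 1187 lower with DESeq2, 108 and 240 without the low-count filter, 1117 and 960 with only the 6 ZEB2-line libraries, and 1224 and 1425 at a threshold of 0.10. They stayed at 0 with limma-voom, other scalings, a stricter filter, without the mitochondrial genome, in the matched pools and in omissions of 1 library. Upper-quartile scaling moved the split at unadjusted p under 0.05 to 1591 higher and 3447 lower. DESeq2 calls ranged over omissions from 47 to 1251 higher and from 12 to 862 lower, and were 29 and 2 in the matched pools and 1886 and 1638 with only the 6 libraries. For the difference between knockout effects, DESeq2 called 6 higher and 11 lower, while edgeR calls ranged from 0 to 2 in each direction over omissions, with 2 and 1 without ZEB1 knockout 2 and 0 and 2 without ZEB1 control 2, and no low-count filter gave 0 and 2. Zeb2 passed with DESeq2 (-0.50) and with the 6 libraries (-0.53). Where a setting changed a count, the cause was not tested. Same-numbered libraries of the 2 groups deviated with correlations of 0.195, -0.0274 and -0.313. These gave no sign that the numbers pair the samples, but with so few libraries in a group they cannot exclude it. With a replicate block over the 6 libraries edgeR called 0 in each direction (smallest adjusted p 0.113), against 1117 and 960 in those libraries without it. Depth limits genes below the count filter, passed by 15416 of 55385.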

Other observations

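Signalling and clock genes not described above also differed by member. Of 35 insulin and mTOR genes 27 were higher (median log2 fold change 0.37, and 0.21 in the matched pools), with 8 called higher and 4 lower by DESeq2. Akt1s1, the mTOR inhibitor PRAS40, stood at 109.5, 118.6 and 147.1 CPM in ZEB2 knockouts, against 72.9, 89.1 and 74.3 CPM in ZEB2 controls (DESeq2 adjusted p = 0.00867). Rragd, a Rag GTPase that recruits mTOR to lysosomes, stood at 95.3, 87.4 and 57.2 CPM in knockouts and 117.5, 138.1 and 164.7 CPM in controls (0.0193). Of 20 circadian clock genes 13 were higher, with 3 called higher and 0 lower, beside 10.5% called higher and 8.91% lower over all genes. Among the 3 was the nuclear receptor Rora (log2 fold change 1.14; DESeq2 adjusted p = 0.0321), called in 2 of 6 omissions.

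In the myostatin and activin axis 13 of 25 genes were higher and 12 lower. Fstl1, a secreted follistatin-like protein, stood at 29.8, 32.0 and 15.3 CPM in knockouts, against 46.9, 53.9 and 77.1 CPM in controls (log2 fold change -1.21; DESeq2 adjusted p = 0.00726). Of 28 polyamine and amino acid genes 19 were higher. DESeq2 called 3 higher and 1 lower, near or below its shares of all genes (10.5% higher and 8.91% lower). Gpt2, a mitochondrial alanine transaminase, was among those called higher (0.84; 0.0449), and Gpt, its cytosolic counterpart, was the one called lower (-0.60; 0.0324). With single libraries left out, Gpt2 was called in 1 of 6 omissions and Gpt in 2 of 6. Of 24 Wnt genes 16 were lower, and Frzb, a secreted Wnt antagonist, stood at 1.61, 5.36 and 0.591 CPM in knockouts and 5.47, 11.6 and 15.2 CPM in controls (-2.07; 0.0117). Its knockout 2 and control 1 lay close together.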
